A study of Mus musculus with 8 samples.

Results

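The Cyp3a genes encode cytochrome P450 monooxygenases of the endoplasmic reticulum. They were followed here in 8 mouse liver RNA libraries as 8 rows of the deposited gene table, those whose symbol was Cyp3a11, Cyp3a13, Cyp3a16, Cyp3a25, Cyp3a41a, Cyp3a41b, Cyp3a44 or Cyp3a59, among 56691 rows in all. Cyp3a enzymes hydroxylate steroids, bile acids and a wide range of drugs, taking electrons from NADPH through P450 oxidoreductase and, in part, cytochrome b5. Their transcription in liver is known to respond to the xenobiotic receptor PXR (Nr1i2), to the related receptor CAR (Nr1i3) and to hepatocyte nuclear factors such as HNF4A. In mice, several members are expressed mainly in female or young liver.

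All animals were wild-type C57BL/6J mice that ate a high-fat, choline-deficient diet with defined amino acids (HFD-CDAA, a dietary model of fatty liver inflammation) for 4 weeks, starting at 6 weeks of age, and were killed following a short fast. Of the 8 libraries, 4 came from livers that received plive-Con, the control, and 4 from livers that received plive-Tet1, both by hydrodynamic tail vein injection, which drives plasmid into liver cells under pressure. Both groups therefore shared strain, diet and injection, and differed by plasmid; which promoter the plasmid carries and how many cells it reached are not stated in the sources used here. For 3 libraries the labels disagree: plive-Tet1 2, 3 and 4 are listed under treatments named for Tet2, Tet3 and Tet4, and their titles were followed. The sex of the mice is not in the labels. No label ties a library to its own animal either, so a liver below stands for a library and n counts libraries.

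Library totals lay between 15885113 and 19850800 counts. Tet1, the gene named on the plasmid, had 1, 9, 6 and 5 counts with plive-Con and 9, 8, 12 and 5 with plive-Tet1, so that the groups overlapped and the count of this gene does not check the labels. The 7 hepatocyte markers summed to 70898 to 92460 CPM (counts scaled to the same library size) with plive-Con and 67649 to 91796 with plive-Tet1. Xist had 0 to 4 counts in a library, whereas the Y-linked genes Ddx3y, Eif2s3y, Kdm5d and Uty were detected in all 8. plive-Con 4 stood apart in several genes of female-biased and male-biased liver expression, which are described with the Cyp3a genes of female bias.

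On GRCm39, 7 of the 8 genes lay in a cluster of 677.0 kb on chromosome 5, from 145373119 to 146050097. Cyp3a13 stood alone on the same chromosome, 7.453 Mb before the cluster. Within the cluster, 6 members were on the minus strand and Cyp3a59 was on the plus strand. Coding sequences from GENCODE M21 fell into sets. Cyp3a11, Cyp3a16, Cyp3a41a, Cyp3a41b and Cyp3a44 shared 92.4% to 99.9% of aligned bases with one another. Cyp3a25 and Cyp3a59 shared 97.5%, and these sets shared only 74.5% to 76.1% between them when Cyp3a57, a further gene of the family, was counted with Cyp3a25 and Cyp3a59. Cyp3a13 shared 75.1% to 76.8% with every other gene.

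The sequences before the annotated starts showed the same sets and are printed because they separate the abundant Cyp3a11 from its near copies. All 8 members matched a RefSeq promoter of build GRCm38.p6. In windows from 250 bases before to 50 bases after the start, Cyp3a11 shared 69.8% to 74.8% of aligned bases with Cyp3a16, Cyp3a41a, Cyp3a41b and Cyp3a44, whereas the latter shared 89.9% to 97.0% with one another. Cyp3a25 and Cyp3a59 shared 95.7%. The 190 bases before each start are given 5′ to 3′ on the gene's strand, with coordinates on GRCm38.p6, and capitals mark the 9-base runs CAAAGTCCA and CAAAGGTCA, both resembling known HNF4A sites.
Cyp3a11, chr5:145879855-145880044, minus strand: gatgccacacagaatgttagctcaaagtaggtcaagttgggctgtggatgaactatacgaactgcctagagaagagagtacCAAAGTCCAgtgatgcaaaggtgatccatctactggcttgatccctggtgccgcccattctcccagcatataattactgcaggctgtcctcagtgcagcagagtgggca
Cyp3a41a, chr5:145720137-145720326, minus strand: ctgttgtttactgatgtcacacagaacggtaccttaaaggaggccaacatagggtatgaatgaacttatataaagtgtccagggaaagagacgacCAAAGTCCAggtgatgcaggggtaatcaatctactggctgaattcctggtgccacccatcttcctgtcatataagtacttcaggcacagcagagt
Cyp3a44, chr5:145805875-145806064, minus strand: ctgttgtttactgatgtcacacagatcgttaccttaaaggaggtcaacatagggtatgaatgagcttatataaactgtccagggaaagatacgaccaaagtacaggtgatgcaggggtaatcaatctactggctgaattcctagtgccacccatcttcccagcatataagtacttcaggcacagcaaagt
Cyp3a25, chr5:146009619-146009808, minus strand: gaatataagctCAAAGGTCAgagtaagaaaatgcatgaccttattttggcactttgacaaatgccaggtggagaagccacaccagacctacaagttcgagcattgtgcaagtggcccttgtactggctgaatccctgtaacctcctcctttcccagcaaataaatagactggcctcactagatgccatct
Cyp3a59, chr5:146079068-146079257, plus strand: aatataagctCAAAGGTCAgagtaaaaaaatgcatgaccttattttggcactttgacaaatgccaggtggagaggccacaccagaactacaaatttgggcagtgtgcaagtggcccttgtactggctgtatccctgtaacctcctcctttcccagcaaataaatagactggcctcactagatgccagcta
Cyp3a13, chr5:137921620-137921809, minus strand: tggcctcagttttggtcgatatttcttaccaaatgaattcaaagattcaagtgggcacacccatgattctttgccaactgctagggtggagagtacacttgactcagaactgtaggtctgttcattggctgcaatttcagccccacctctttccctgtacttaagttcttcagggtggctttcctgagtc

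On either strand of the RefSeq window, CAAAGTCCA was found in Cyp3a11, Cyp3a16, Cyp3a41a and Cyp3a41b, beginning between -109 and -95 from the start, and in 0.477% of 27025 RefSeq promoters. Cyp3a44 had the nearest run CAAAGTACA at the place that held the motif in Cyp3a41a, which is the substitution C7A counted from the first base of the motif. CAAAGGTCA was found in Cyp3a25 and Cyp3a59, and in 0.466% of all promoters. Neither run was found in the Cyp3a13 window. A direct repeat of AGNTCA with a spacer of 4 bases (DR4), the kind of element that PXR and CAR are known to bind with RXR, was found in Cyp3a11 alone among the members, from -172 to -157, and in 0.133% of all promoters. There it contains the shorter run AGGTCA, which 16.04% of promoters hold. The direct repeat of AGNTCA with 3 spacer bases (DR3) and its everted repeat with 6 (ER6) were found in none of the 8. These matches describe letters in a window and say nothing of binding in these livers.

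Levels of different genes were compared as deposited FPKM, that is, counts scaled to exonic length and to the library total. Cyp3a11, the main Cyp3a form of adult mouse liver, was the most abundant at 326 ± 70.9 FPKM (SD, n = 8). Cyp3a25 followed at 80.8 ± 16.5 FPKM, and Cyp3a13, which is also known from mouse intestine, at 45.1 ± 5.93 FPKM. Cyp3a59 was at 5.18 ± 1.54 FPKM. The remaining genes are known for female or early-life expression in mouse liver and were close to or at 0 here: Cyp3a44 at 0.173 ± 0.114 FPKM, Cyp3a16 at 0.035 ± 0.030 FPKM, and Cyp3a41a and Cyp3a41b listed at 0 in every library.

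Each step in this order from Cyp3a11 down to Cyp3a44 held in 8 of 8 libraries. The ratios of mean FPKM were 4.03 (Cyp3a11 over Cyp3a25), 1.79 (Cyp3a25 over Cyp3a13), 8.71 (Cyp3a13 over Cyp3a59) and 30.1 (Cyp3a59 over Cyp3a44). The exact two-sided sign-flip test of log2(FPKM + 0.5) gave an adjusted p of 0.0137 for each of these steps over 7 neighbouring pairs, from a raw p of 0.00781, the smallest that the flips of 8 libraries allow. Cyp3a44 exceeded Cyp3a16, and Cyp3a16 exceeded the 0 of Cyp3a41a, in 6 of 8 libraries each (exact adjusted p = 0.0365), differences of a few reads, at least 1 of which the test lost whenever a library was left out. Cyp3a41a and Cyp3a41b had 0 counts each and could not be ordered. The deposited length of Cyp3a11, 5093 exonic bases, includes a transcript with a retained intron; with the 2344 bases of its protein-coding transcript its mean was 708 ± 154 and the ratio to Cyp3a25 was 8.42, so the order stood and the size of the first step did not.

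**Figure D1:**
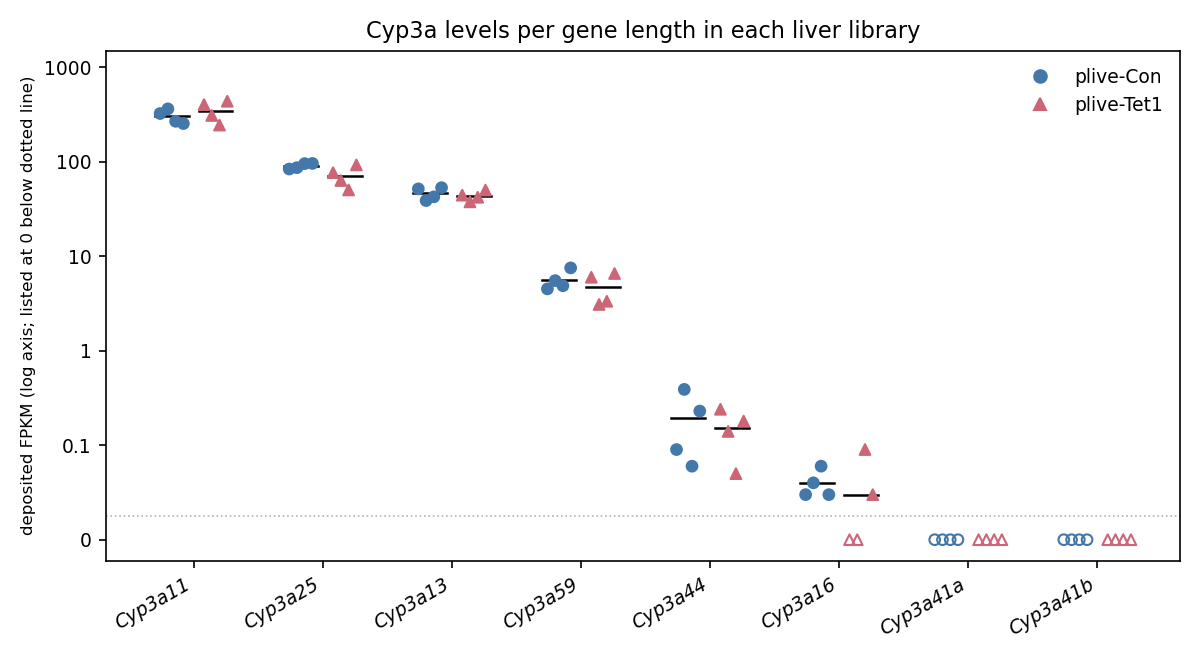
Deposited FPKM of the 8 Cyp3a genes in each liver library on a log axis, with values listed at 0 drawn as open symbols below the dotted line; circles are plive-Con, triangles plive-Tet1 and bars the means of 4. Cyp3a11 lies at 326 FPKM on average, Cyp3a44 at 0.173 FPKM, and both groups follow the same order.

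Together the members took 0.148% to 0.259% of the counts of a library, and the low genes contributed little of it. Cyp3a44 (ENSMUSG00000054417, chromosome 5, 145710793 to 145742684) had 47 counts over all libraries and Cyp3a16 (ENSMUSG00000038656, 145373119 to 145406533) had 9. Cyp3a41a (ENSMUSG00000075551, 145630859 to 145656946) and Cyp3a41b (ENSMUSG00000075552, 145495474 to 145521540) had 0, where 3 counts, the limit that a count of 0 allows, would correspond to 0.0732 to 0.0917 FPKM depending on the library. These copies resemble each other so closely that only 17.1% of the 150-base windows of the Cyp3a41a transcript and 17.3% of those of Cyp3a41b were unique in the family. How the authors' counting treated reads that align to both is not stated in the sources used here, so their 0 is uncertain. The FPKM limit above takes the full exonic length and would be higher if such reads were dropped. No 150-base window of Cyp3a11, Cyp3a13, Cyp3a16 or Cyp3a44 was shared with another Cyp3a transcript, and Cyp3a25 and Cyp3a59 shared 13.

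The plive-Tet1 livers were set against the plive-Con livers to ask whether Cyp3a transcripts differ with the plasmid on this diet. Groups were compared in CPM after scaling by the trimmed mean of M values (TMM). Of the 8 members, 4 had enough counts for edgeR's quasi-likelihood test, and 0 of these passed an adjusted p of 0.05, where 0% of all 14533 tested genes did; DESeq2 and limma voom called 0 of them too. At an unadjusted p under 0.05 stood 1 member, Cyp3a25, against 4.07% of all genes. For 0 of the 4 were the groups' CPM values apart, against 2.28% of all genes. In whole liver, fewer cells of a type and less RNA per cell cannot be told apart.

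Cyp3a11 (ENSMUSG00000056035, chromosome 5, 145791236 to 145816774, minus strand) measured 1672, 1773, 1459 and 1347 CPM in the plive-Con livers. In the plive-Tet1 livers it measured 2021, 1509, 1238 and 2248 CPM. The lowest and the highest values were both plive-Tet1, replicates 3 and 4, and the groups overlapped. Means were 1563 ± 194 and 1754 ± 463 CPM (SD, n = 4 each), the log2 fold change of plive-Tet1 over plive-Con was 0.17 ± 0.19 (SE; 95% interval -0.24 to 0.58), and the edgeR adjusted p was 1.000. Without plive-Tet1 4 the log2 fold change was 0.02.

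Cyp3a25 (ENSMUSG00000029630, 145914004 to 145946428, minus strand) measured 177, 173, 213 and 209 CPM with plive-Con and 157, 126, 104 and 195 CPM with plive-Tet1. Replicates 1, 2 and 3 of plive-Tet1 lay below every control, and replicate 4 lay among the controls, so that the groups overlapped. Means were 193 ± 20.7 and 146 ± 39.4 CPM (SD, n = 4 each). The log2 fold change was -0.40 ± 0.18 (95% interval -0.79 to -0.02), with an unadjusted edgeR p of 0.0399 and an adjusted p of 1.000. Among all tested genes, 314 (2.16%) were lower and 277 (1.91%) higher at an unadjusted p under 0.05; with library totals in place of TMM these were 200 and 395.

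Cyp3a13 (ENSMUSG00000029727, 137891194 to 137919881, minus strand) measured 155, 110, 134 and 164 CPM with plive-Con and 129, 107, 124 and 150 CPM with plive-Tet1. It was the steadiest of the tested members, with a coefficient of variation of 15.5% over the 8 livers against 20.7% for Cyp3a11, 22.7% for Cyp3a25 and 31.2% for Cyp3a59. The groups overlapped, and the log2 fold change was -0.15 ± 0.15 (95% interval -0.47 to 0.18; edgeR adjusted p = 1.000). Its reads could be confused with those of 2 overlapping rows, Gm15502 on the same strand with 49 counts in total and an antisense row with 11.

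Cyp3a59 (ENSMUSG00000061292, 146016067 to 146050097, plus strand) measured 9.15, 10.6, 10.4 and 15.7 CPM with plive-Con and 11.8, 5.92, 6.64 and 13.3 CPM with plive-Tet1. Replicates 2 and 3 of plive-Tet1 were the lowest livers and plive-Con 4 was the highest. The log2 fold change was -0.29 ± 0.26 (95% interval -0.86 to 0.28; edgeR adjusted p = 1.000), and it was -0.10 without plive-Con 4.

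**Figure D2:**
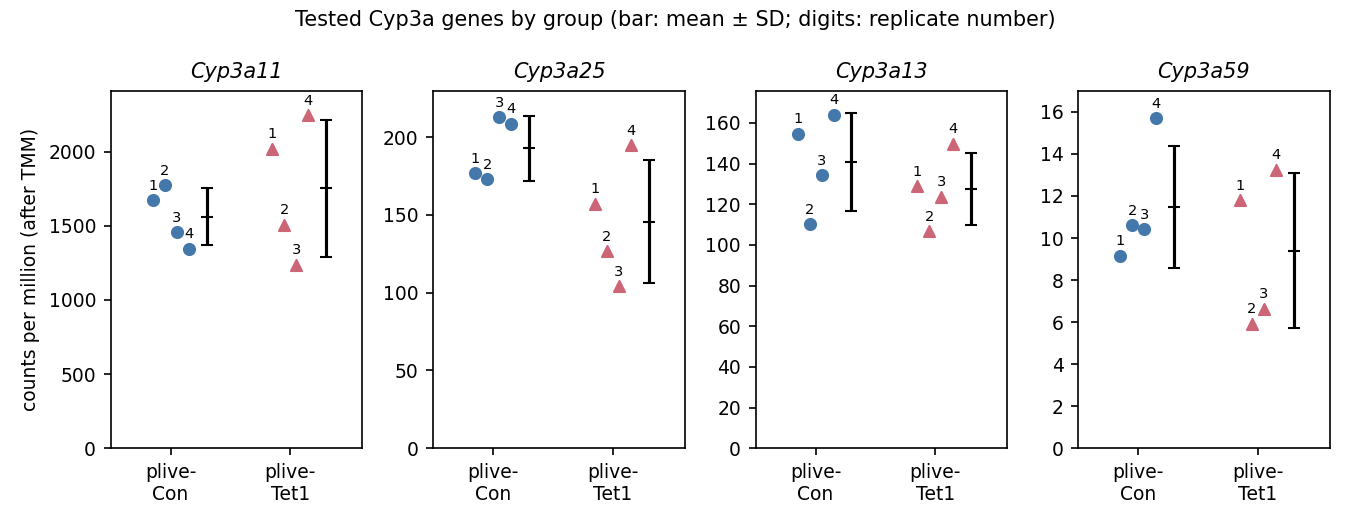
CPM after TMM of the 4 tested Cyp3a genes, with 1 symbol per liver labelled by its replicate number and the mean ± SD beside each group; all axes start at 0. The groups overlap for every gene, and replicates 2 and 3 of plive-Tet1 are low for Cyp3a25 and Cyp3a59.

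The members too low for the model were compared by counts. Cyp3a44 had 3, 12, 2 and 8 counts with plive-Con and 8, 5, 2 and 7 with plive-Tet1. Scaled to library totals, the pooled ratio was 0.813 with an exact 95% interval of 0.437 to 1.502, which covers counting error only. Cyp3a16 had 1, 1, 2 and 1 counts with plive-Con and 0, 0, 3 and 1 with plive-Tet1, a pooled ratio of 0.739 (exact interval 0.147 to 3.43). Exact permutation tests of log2(FPKM + 0.5) over the 70 assignments gave p = 0.714 for Cyp3a44 and p = 0.60 for Cyp3a16, where 0.0286 is the smallest possible. No difference was detectable at these counts. When the counts of Cyp3a16, Cyp3a41a, Cyp3a41b and Cyp3a44 were summed to 1 row, its log2 fold change was -0.36 ± 0.49 (95% interval -1.42 to 0.70; edgeR adjusted p = 1.000).

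Among the 3 other rows with a Cyp3a symbol, Cyp3a63-ps and Cyp3a61-ps1 had 0 counts throughout. Cyp3a57 (ENSMUSG00000070419, chromosome 5, 145282089 to 145327736, plus strand) had 8, 20, 13 and 10 counts with plive-Con and 38, 35, 18 and 31 with plive-Tet1. In CPM, 3 plive-Tet1 livers lay above every control and replicate 3 lay among them. The log2 fold change was 1.10 ± 0.38 (95% interval 0.29 to 1.91), with an unadjusted edgeR p of 0.0118 and an adjusted p of 1.000. Its level was low, at 0.604 ± 0.327 FPKM over the 8 livers.

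**Figure D3:**
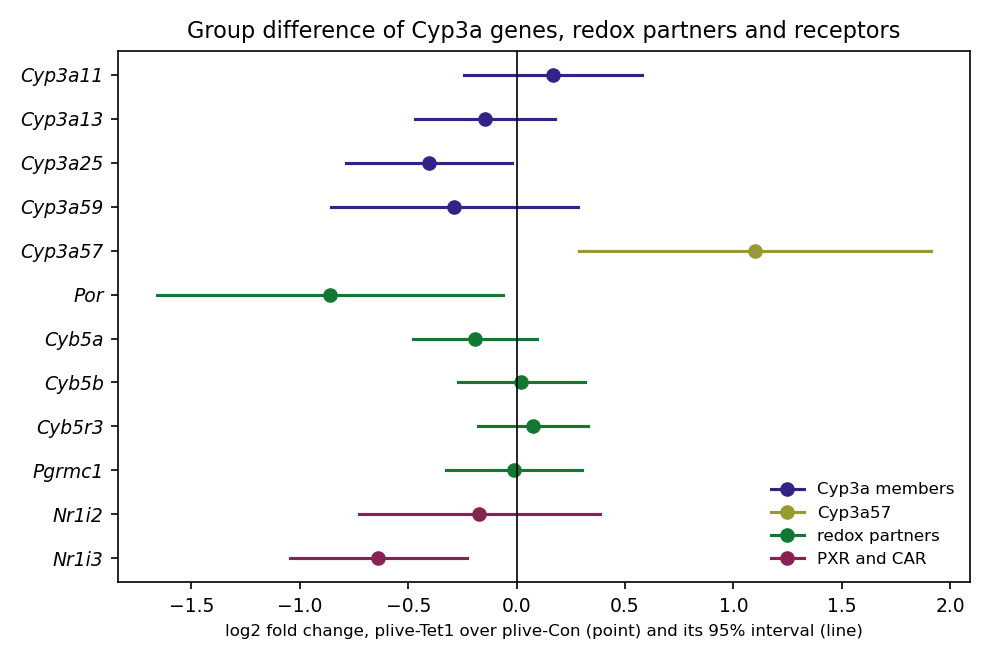
Log2 fold changes of plive-Tet1 over plive-Con (points) with 95% intervals (lines) from edgeR for the tested Cyp3a genes, their redox partners and the receptors Nr1i2 and Nr1i3. The interval of Cyp3a25 ends at -0.02 and that of Cyp3a57 begins at 0.29, while those of Cyp3a11, Cyp3a13 and Cyp3a59 include 0.

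Counts of 2 genes in the same liver share its depth and scaling, so the balance between members was also compared as a ratio. Cyp3a11 made up 77.6% to 85.8% of the members' counts with plive-Con and 84.1% to 87.1% with plive-Tet1. The count ratio of Cyp3a11 to Cyp3a25 was 9.46, 10.2, 6.86 and 6.46 in the plive-Con livers. In the plive-Tet1 livers it was 12.9, 11.9, 11.9 and 11.5, and every one of these lay above every control. The ratio varied little within plive-Tet1, although Cyp3a11 itself ranged from 1238 to 2248 CPM there.

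The mean log2 ratio differed by 0.57 between the groups, with an exact permutation p of 0.0286, the smallest possible, and an adjusted p of 0.171 over the 6 pairs of tested members. It therefore did not pass. A single pair at the smallest possible p could not have gone below 0.171 over 6 pairs, so this adjustment could not decide. This ratio was singled out after its values were seen. Of 14514 genes set against Cyp3a11 in the same way, 0.992% lay lower relative to it in every plive-Tet1 liver than in any control, as Cyp3a25 did, and 0.11% lay higher. The difference ranged from 0.46 to 0.69 when each library was left out in turn. The other 5 ratios overlapped between the groups; Cyp3a11 over Cyp3a59, for example, ran from 85.8 to 183 with plive-Con and from 170 to 255 with plive-Tet1.

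**Figure D4:**
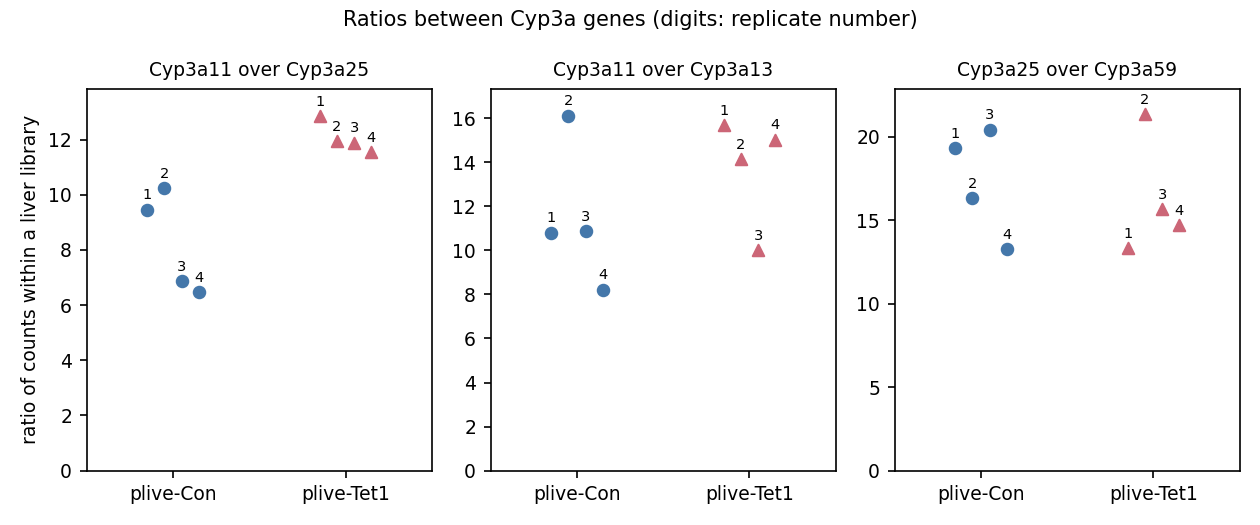
Ratios of counts between Cyp3a genes within each liver, labelled by replicate number, on axes that start at 0. Cyp3a11 over Cyp3a25 lies between 6.46 and 10.2 with plive-Con and between 11.5 and 12.9 with plive-Tet1, whereas Cyp3a11 over Cyp3a13 and Cyp3a25 over Cyp3a59 overlap.

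Across the 8 livers, the pair with the highest Pearson r in log2 CPM was Cyp3a25 and Cyp3a59, the near copies at the end of the cluster, with r = 0.825 (permutation p = 0.0137, adjusted p = 0.206 over 15 pairs) and Spearman rho = 0.595 (permutation p = 0.132, adjusted p = 0.397). By rho, Cyp3a13 with Cyp3a25 (0.714), Cyp3a44 with Cyp3a59 (0.667) and Cyp3a13 with Cyp3a59 (0.619) stood higher. Without plive-Tet1 2 and 3, the livers farthest from the median of Cyp3a25, its r with Cyp3a59 was 0.370. Leaving out the most extreme livers also narrows the range, so whether the relation rested on them was not tested. With values centred on the group means, r of this pair was 0.821. Cyp3a11 and Cyp3a25 had r = 0.347 (permutation p = 0.399, adjusted p = 0.665) and rho = 0.0714 (permutation p = 0.882, adjusted p = 0.977), with r = -0.38 without plive-Tet1 3 and 4 and r = 0.687 with values centred on the group means. Cyp3a11 and Cyp3a13 had r = 0.0705 (permutation p = 0.865, adjusted p = 0.865) and rho = -0.024 (permutation p = 0.977, adjusted p = 0.977). None of the 15 pairs passed the adjusted threshold.

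Patterns of single members were also compared with those of all tested genes, nearly all of which lie outside the family. Over the 8 livers, the tested genes with the highest Pearson r to Cyp3a11 in log2 CPM were Casp1 (0.990), which encodes the inflammasome protease caspase-1, Nop58 (0.985), a nucleolar protein of box C/D particles, Pkia (0.981), an inhibitor of protein kinase A, Stap1 (0.979), a signal-transducing adaptor, and 2700099C18Rik (0.978). For Cyp3a25 they were Cenpu (0.971), a centromere protein, B630019A10Rik (0.959), Akr1c12 (0.944), an aldo-keto reductase, Gm6206 (0.938) and Zfp949 (0.938). They are the highest of 14533 genes over only 8 points and are given as a description. Cyp3a59 ranked 173 among tested genes by its r to Cyp3a25, and Cyp3a25 ranked 4356 by its r to Cyp3a11.

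Of the redox partners, 2 of 5 had higher and 3 lower values with plive-Tet1, and 0 passed the edgeR test. Por, the P450 oxidoreductase, measured 209, 197, 222 and 637 CPM with plive-Con and 108, 150, 269 and 170 CPM with plive-Tet1. plive-Con 4 was the highest liver by far, and the groups overlapped. The log2 fold change of Por was -0.86 ± 0.37 (edgeR adjusted p = 1.000) and -0.27 without plive-Con 4. Cyb5a and Cyb5b, forms of cytochrome b5, had log2 fold changes of -0.19 ± 0.13 and 0.02 ± 0.13, Cyb5r3, the cytochrome b5 reductase, 0.08 ± 0.12, and Pgrmc1, a heme-binding membrane protein known to associate with P450s, -0.01 ± 0.15, which turned positive under library totals and on the FPKM scale.

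Regulators of Cyp3a transcription gave 25 tested genes of 26, of which 9 were higher and 16 lower with plive-Tet1; 0 passed, and the median log2 fold change was -0.04 against 0.01 over all tested genes. Nr1i3 (CAR) measured 46.3, 59.3, 73.5 and 91.7 CPM with plive-Con and 35.3, 43.2, 46.7 and 48.8 CPM with plive-Tet1. Only plive-Con 1 lay within the range of the plive-Tet1 livers. The log2 fold change of Nr1i3 was -0.64 ± 0.19, with an unadjusted edgeR p of 0.00495 and an adjusted p of 1.000. Without plive-Con 4, its highest liver, it was -0.46. Nr1i2 (PXR) had a log2 fold change of -0.17 ± 0.26, which was 0.24 without plive-Con 4, the liver with 130 CPM against 46.6 to 70.7 in the others. Dbp and Tef, circadian activators of the PAR bZIP family, had -0.76 ± 0.25 and -0.62 ± 0.21 (edgeR adjusted p = 1.000 each).

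Known targets of PXR and CAR outside the family gave 5 genes with higher and 10 with lower values among 15 tested, 0 passed, and the median was -0.04. The P450 genes Cyp2c29 and Cyp2a5 had log2 fold changes of -1.33 ± 0.43 and -0.66 ± 0.22, and that of Cyp2c29 was -0.62 without plive-Con 4. Gsta1, a glutathione transferase, had 0.41 ± 0.16. Among 10 genes of bile acid synthesis, 4 were higher and 6 lower and 0 passed, with the smallest p for Akr1d1, the steroid 5-beta-reductase (-0.38 ± 0.20), Cyp7b1, the oxysterol 7-hydroxylase (-0.61 ± 0.39, and -0.05 without plive-Con 3), and Slc27a5, a bile acid ligase (-0.28 ± 0.20, and from -0.44 without plive-Con 2 to -0.16 without plive-Tet1 1).

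The Cyp3a genes of female bias were low in every library, plive-Con 4 included. In plive-Con 4, 5 of 6 tested female-biased genes outside the family had their highest value, against 18.2% of all tested genes. The thioesterase gene Acot3 reached 141 CPM in plive-Con 4 against 1.89 to 10.3 CPM in the other livers. Cux2, a transcription factor, measured 9.92 CPM there against 0.257 to 0.753 CPM in the others. The P450 genes Cyp2a4, at 268 CPM, and Cyp2b9, at 123 CPM, were also highest in that liver. So were Fmo2, at 38.1 CPM, and, among genes too low to be tested, Cyp2b13 at 6.15 CPM and Sult2a1 at 0.597 CPM. The remaining genes of the list were not: Prom1 measured 2.81 CPM there and 5.30 CPM in plive-Con 2, A1bg and Hao2 had 0 counts there, and Sult3a1 had 0 in every library. In the same liver, Cyp3a41a and Cyp3a41b had 0 counts, as elsewhere, a 0 called uncertain above. Cyp3a16 had 1 count there and Cyp3a44 had 8, which is within its range of 2 to 12 elsewhere.

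All 6 tested genes of the 11 in the female-biased list were lower with plive-Tet1, their median log2 fold change was -1.98, and 0 of them passed the edgeR test (4 had an unadjusted p under 0.05, against 2.16% of all genes that were lower at that p). For the 3 with the smallest p, much of the log2 fold change came from plive-Con 4: Acot3 had -3.21 ± 0.88 and -0.999 without it, Cux2 -2.85 ± 0.94 and -0.55, and Cyp2b9 -1.57 ± 0.45 and -0.84. Acot3 was lower in every plive-Tet1 liver than in any control, by a narrow margin, 6.79 against 6.87 CPM. The Cyp3a11 to Cyp3a25 ratio was lowest in plive-Con 4, at 6.46, and its difference between the groups without that liver was 0.46 (log2). What set plive-Con 4 apart was not tested.

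**Figure D5:**
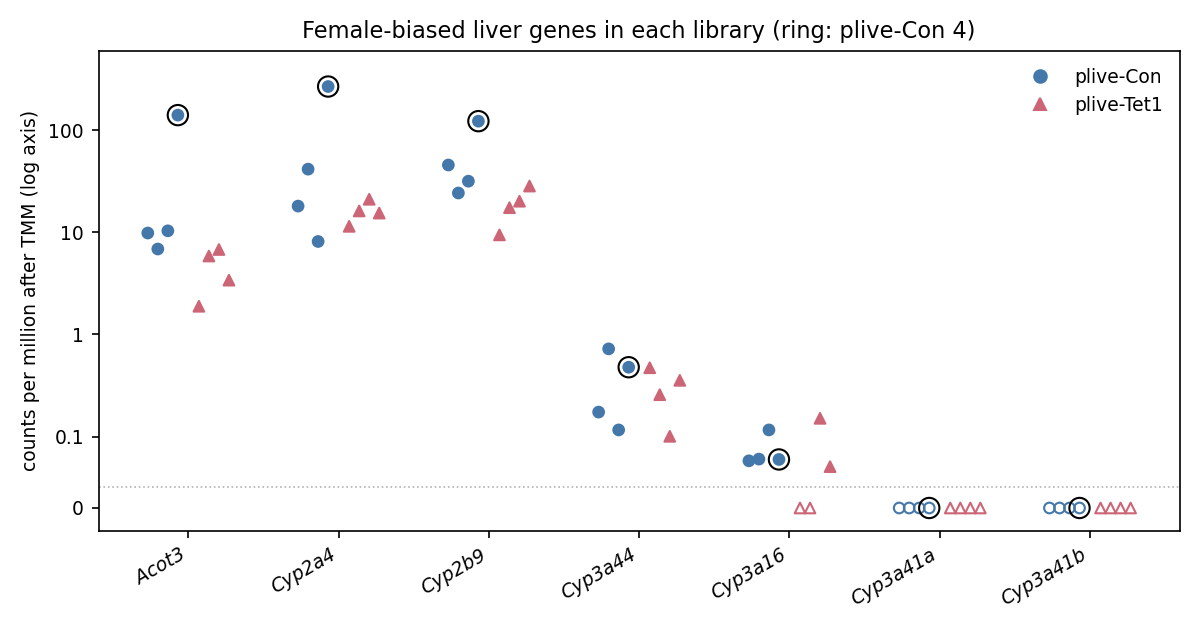
CPM after TMM on a log axis of 3 female-biased genes outside the family and of the 4 low Cyp3a genes in each library, with values at 0 as open symbols below the dotted line and plive-Con 4 ringed. Acot3 stands at 141 CPM in plive-Con 4, and Cyp3a41a and Cyp3a41b are at 0 in every library.

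Male-biased liver genes gave 6 higher and 8 lower among 14 tested, with a median of -0.01 and 0 past the test. For 11 of the 14, plive-Con 4 was the lowest of the 8 livers, against 19.8% of all tested genes. The summed level of the list ran from 2851 to 7564 CPM with plive-Con and from 4765 to 7029 CPM with plive-Tet1. In plive-Con 4, the major urinary protein gene Mup20 measured 1174 CPM against 1954 to 4151 CPM elsewhere, the transporter Slco1a1 14.6 CPM against 51.2 to 127 CPM, and the steroid dehydrogenase Hsd3b5 0 counts. The smallest p belonged to the fatty acid hydroxylases Cyp4a12a (0.96 ± 0.15, edgeR adjusted p = 0.271) and Cyp4a12b (0.97 ± 0.22, adjusted p = 0.957) and to the complement gene C6 (0.58 ± 0.19, adjusted p = 1.000, and 0.40 without plive-Con 4). DESeq2 called both Cyp4a12 genes. Sex-linked Ddx3y, Kdm5d and Uty had log2 fold changes of -0.35 ± 0.23, 0.10 ± 0.17 and 0.22 ± 0.27, and that of Ddx3y ran from -0.55 without plive-Tet1 4 to -0.18 without plive-Tet1 3.

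Cyp3a transcripts are known to differ in level along the liver lobule, so zonal genes were set beside them. Of 11 pericentral genes 3 were higher and 8 lower, and of 10 periportal genes 1 was higher and 9 lower; 0 passed in either list, and the medians were -0.07 and -0.17. The pericentral P450 Cyp2e1 had -0.24 ± 0.17, the Wnt receptor component Lgr5 0.39 ± 0.22 and the ribonuclease Rnase4 -0.20 ± 0.18. Cdh1, the E-cadherin gene, had 0.47 ± 0.14, the amino acid enzymes Sds -0.28 ± 0.25 and Gls2 -0.22 ± 0.21. Sds had -0.01 without plive-Con 4, Gls2 from -0.40 without plive-Con 2 to -0.14 without plive-Tet1 2, and Rnase4 -0.07 without plive-Con 3.

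Other cell types could add RNA to whole liver. The 5 erythroid markers summed to 272 to 400 CPM with plive-Con and 192 to 284 CPM with plive-Tet1, and 4 of them were lower at an unadjusted p under 0.05, as were 2.16% of all tested genes. The 5 lymphocyte markers summed to 7.21 to 23.7 CPM and 8.56 to 12.8 CPM, with 3 lower at that unadjusted p. The 5 endothelial markers summed to 194 to 248.7 CPM and 148 to 210 CPM. All 5 were lower in direction, and 2 of these were lower at that p. Macrophage markers summed to 772 to 838 and 767 to 914 CPM, with 1 lower at that p (Clec4f) and 4 higher by direction alone. Stellate markers summed to 475 to 817 and 696 to 771 CPM and cholangiocyte markers to 93.6 to 238 and 145 to 357 CPM. In these lists 0 were lower at that p, and 2 of each were lower by direction alone. All 6 of these sums overlapped between the groups. The 6 enterocyte markers, given because intestine also expresses Cyp3a13 and Cyp3a25, summed to 99.5 to 153 CPM with plive-Con and 76.2 to 126 CPM with plive-Tet1. Muc2, Krt20 and Cdh17 had at most 3, 7 and 10 counts in a library, whereas Fabp2 measured 61.0 to 130 CPM and Lgals4 12.5 to 26.7 CPM. Lgals4 had a log2 fold change of -0.62 ± 0.18 (edgeR adjusted p = 1.000, and unadjusted p = 0.00452), Fabp2 one of -0.26 ± 0.21, and Vil1 one of 0.15 ± 0.42. The part of these cells in the Cyp3a25 difference was not tested.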

How the data were processed

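Total RNA from liver was sequenced as paired reads of 150 bases, per the labels' protocols. The submitters' processing notes list cutadapt 1.9.1, HISAT2 2.2.1, HTSeq 0.6.1 and build GRCm39; the strand setting, the counting mode for reads that align to several genes and the annotation release are not stated in the sources used here. The deposited table holds raw read counts per gene and, from them, FPKM, per the file headers. The authors' FPKM was recomputed from count, length and total and differed by at most 0.00500. Libraries were grouped by title, and no label ties a library to its own animal, so p-values reflect the spread between libraries.

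Counts were filtered by filterByExpr (14533 genes), scaled by TMM and tested with edgeR's quasi-likelihood test, two-sided, with the group as the only term and Benjamini-Hochberg adjustment over all tested genes at 0.05. The script was tested on simulated data. SE and 95% intervals come from that fit. Within-group pairs of libraries differed by 12.9 to 77.6 in chi-square per degree of freedom, more than repeated sequencing of a single library would give. Separate preparations of the same liver could not be recognised in this way, and pairs across the groups were not examined. Low members and ratios were tested by exact permutation over 70 assignments, neighbouring levels by sign flips over the 8 libraries, and correlations by 40320 pairings. Alternatives were DESeq2, limma voom, limma on log2(FPKM + 0.5), other pseudocounts, scalings and filters, robust dispersion, summed near copies, a replicate term and each library left out. The transcript length used for levels and the leaving out of libraries for ratios and list genes were added after seeing the data. Transcripts came from GENCODE M21, used for sequence only, and promoters from RefSeq. R 4.3.3, edgeR 4.0.16, limma 3.58.1, DESeq2 1.42.0, Python 3.11.15, SciPy 1.17.1 and Biopython 1.88 were used.

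The members, the gene lists and the tests were chosen with earlier results of these data known. Named were all members, other Cyp3a rows, Tet1, the 3 genes of smallest p in each list, all redox partners, Nr1i2, Nr1i3 and the 5 genes most like Cyp3a11 and Cyp3a25. Cyp2a4, other genes cited for plive-Con 4 and single marker genes were chosen for mention with their values known. 1 gene of a list is not reported here and was left out of that list's counts.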

Additional observations from a re-analysis of the deposited data

Results flagged for a closer look

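Single livers far from the other 3 of their group were looked for by Dixon's ratio in 86 groups of 4 values. These were values of the members with counts, Cyp3a57, the redox partners, Nr1i2, Nr1i3 and the ratios between tested members. The 3 genes of smallest p in each list other than the cell markers were added. Chance gives about 1 in 20 such groups, and 6 exceeded the critical value. Among the Cyp3a genes this was Cyp3a16 in plive-Con 3, at 0.116 CPM, which is 2 counts against 1 in each of the other controls. Cyp2a4 and Fmo2, also highest in plive-Con 4, were not examined in this way. In plive-Con 4, 3 of the examined genes stood out: Por at 637 CPM, Acot3 at 141 CPM and Cux2 at 9.92 CPM. In plive-Con 3 they were Dbp at 114 CPM and Rnase4 at 1556 CPM.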

How the results depend on the processing

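The log2 fold changes of the 4 tested members kept their direction, and their adjusted p stayed above 0.05, in each of 20 alternatives, ranging from 0.02 to 0.28 for Cyp3a11, -0.25 to -0.06 for Cyp3a13, -0.58 to -0.30 for Cyp3a25 and -0.50 to -0.10 for Cyp3a59; Cyp3a57 ranged from 0.40 to 1.41. Over all genes, the number called was 0 except for DESeq2 (11, of which 5 were higher and 6 lower) and the fit with no filter (132, of which 33 were higher and 99 lower); with each library left out it ranged from 0 to 0. Of the genes named from the lists, Cyp4a12a and Cyp4a12b passed in both of these fits. Acot3, Cux2, Cyp2b9, Cyp2c29, Cyp2a5, Cyp7b1, Dbp, Tef, Nr1i3 and Por passed with no filter. Their edgeR adjusted p there ran from 2.73e-43 (Acot3) to 0.0267 (Cyp7b1), with Nr1i3 at 0.00758 and Por at 6.40e-05. None of the 4 tested Cyp3a members passed in either fit, and values of Cyp3a16 and Cyp3a44 with no filter were not examined. The cause of the calls with no filter was not tested. Replicate numbers were tried as a block, though same-numbered libraries did not deviate together (r from -0.040 to 0.069, so the numbers were not taken as a pairing). The block left 0 calls, with -0.44 for Cyp3a25, 0.13 for Cyp3a11 and -0.34 for Cyp3a59. The order of levels was the same in every alternative, and the neighbouring pairs that passed numbered 4 to 5 of 7 with each library left out. Some values near 0 changed sign. Cyp3a44, at -0.07 in log2(FPKM + 0.5), was 0.060 without plive-Con 2 and 0.010 without plive-Tet1 3 (range -0.16 to 0.060 with each library left out). Cyb5b was -0.00215, -0.051 and -0.020 without plive-Con 1, plive-Con 2 and plive-Tet1 3 (range -0.051 to 0.095), Kdm5d -0.040 (range to 0.17) and Uty -0.11 (range to 0.35) without plive-Tet1 4, and Nr1i2 0.24 without plive-Con 4 (range -0.34 to 0.24). Pgrmc1 was 0.035 with library totals, 0.032 on the FPKM scale with each pseudocount, and 0.050, 0.018 and 0.030 without plive-Con 3, plive-Tet1 2 and plive-Tet1 3 (range -0.085 to 0.050). The correlation of Cyp3a11 with Cyp3a13 was -0.0180, -0.0349 and -0.18 without plive-Tet1 2, 3 and 4 (range -0.18 to 0.36), and that with Cyp3a25 was -0.10 without plive-Tet1 3 (range -0.10 to 0.57). Summed Cyp3a41a and Cyp3a41b counts were 0 and could not be fitted. Depth limits Cyp3a16 and Cyp3a44, and 4 libraries per group limit the rest.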
